A study of Mus musculus with 47 samples.

Results

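The genes described here are 28 genes of GABA signalling: subunits of the GABA-A and GABA-B receptors, proteins that anchor or traffic them, and the enzymes and transporters that make, move and break down GABA. They were taken by gene name from the table of 48795 genes, and all 28 were in it. RNA from dissected striatum of 47 mice aged 6 months was sequenced, 1 library per mouse. The groups were mice heterozygous for the Q140 knock-in and Ccdc82-/- (7 mice), Ccdc82-/- mice (8), mice heterozygous for Q140 and Ccdc82+/- (8), Ccdc82+/- mice (8), mice heterozygous for Q140 with unaltered Ccdc82 (8) and wild type (WT) mice (8). Each group held 4 mice of each sex, except the Q140 Ccdc82-/- group with 3 females and 4 males. The labels give the background of all groups as C57BL without a substrain, and they do not say how the Ccdc82 allele was made or in which cells it is lost. Q140 is a knock-in of an expanded CAG repeat into the mouse Htt gene, used as a model of Huntington's disease.

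GABA is the main inhibitory transmitter of the brain, and in the striatum it is made by the medium spiny neurons as well as by local interneurons. GABA-A receptors are chloride channels built from several subunits: receptors with a gamma subunit sit mostly at synapses, and receptors with the delta subunit lie outside them and carry a steady, tonic current. GABA-B receptors are pairs of Gabbr1 and Gabbr2 proteins that signal through G proteins, and KCTD proteins attached to them shape how fast the response starts and fades.

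The libraries held 41.3 to 61.7 M counts, with a median of 47.7 M. Ccdc82, the targeted gene, matched the labels: it averaged 4.56 ± 0.652 CPM in Q140 Ccdc82-/- and 4.57 ± 0.666 CPM in Ccdc82-/- mice, 8.61 ± 0.927 CPM in Q140 Ccdc82+/- and 8.42 ± 0.519 CPM in Ccdc82+/- mice, and 11.6 ± 0.95 CPM in Q140 and 12 ± 0.773 CPM in WT mice (SD, n = 7 in the first group and 8 in the others). Htt itself averaged 199 ± 12.1 CPM in Q140 and 217 ± 9.36 CPM in WT mice (SD, n = 8 each), a log2 fold change of -0.13 ± 0.029 (adjusted p = 0.000462). CPM are counts per M counts, scaled between libraries by trimmed means (TMM). The 17 markers of medium spiny neurons summed to 12100 to 14600 CPM in Q140 and 18800 to 21500 CPM in WT mice, and all 17 were detected, as in the other groups. The library of the first male in the Ccdc82-/- group had 353 CPM of 10 choroid plexus markers and that of the first male in the WT group 73.7 CPM, against medians of 28.7 and 35.0 CPM in those groups. Counts per gene in bulk tissue do not tell fewer cells of a type from less RNA per cell.

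Promoter windows show the start regions of the members whose level differed with Q140 on every Ccdc82 background. RefSeq windows on GRCm38.p6, 250 bases before to 50 bases after a transcript start, were matched by symbol for 25 of the 28 members, in 31 windows. No window of Abat, Gabrd or Kctd16 was among them. The match left out the chromosome that holds Kctd16, so its absence does not show that RefSeq lacks an entry. The windows of all genes, used below for comparison, were not limited in this way. Printed are Gabra5 (chr7:57510010-57510309, minus strand), Gabrb2 (chr11:42420190-42420489, plus strand) and Kctd8 (chr5:69341660-69341959, minus strand), which were higher with Q140, and Gabra4 (chr5:71658259-71658558, minus strand) and Gabbr1 (chr17:37045716-37046015, plus strand), which were lower. Each runs 5′ to 3′ on the gene's strand. Capitals mark the half-site of the cyclic AMP response element, TGACG on either strand, and the TATA box letters TATAAA on either strand.
Gabra5: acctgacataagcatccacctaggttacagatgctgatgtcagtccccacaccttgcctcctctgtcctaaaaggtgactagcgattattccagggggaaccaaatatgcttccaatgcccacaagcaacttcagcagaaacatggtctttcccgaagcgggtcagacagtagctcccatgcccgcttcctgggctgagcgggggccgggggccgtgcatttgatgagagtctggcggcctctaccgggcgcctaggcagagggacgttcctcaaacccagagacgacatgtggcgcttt
Gabrb2: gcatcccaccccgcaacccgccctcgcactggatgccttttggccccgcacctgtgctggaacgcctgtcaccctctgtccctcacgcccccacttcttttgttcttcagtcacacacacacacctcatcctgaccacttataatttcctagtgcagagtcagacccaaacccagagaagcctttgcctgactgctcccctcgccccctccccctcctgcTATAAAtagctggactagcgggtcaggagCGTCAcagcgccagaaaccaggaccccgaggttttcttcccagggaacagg
Kctd8: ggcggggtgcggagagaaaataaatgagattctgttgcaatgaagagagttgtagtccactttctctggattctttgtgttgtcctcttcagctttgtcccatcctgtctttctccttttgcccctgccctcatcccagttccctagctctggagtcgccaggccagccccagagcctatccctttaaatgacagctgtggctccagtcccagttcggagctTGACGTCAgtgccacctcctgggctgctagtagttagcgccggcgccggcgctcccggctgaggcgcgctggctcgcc
Gabra4: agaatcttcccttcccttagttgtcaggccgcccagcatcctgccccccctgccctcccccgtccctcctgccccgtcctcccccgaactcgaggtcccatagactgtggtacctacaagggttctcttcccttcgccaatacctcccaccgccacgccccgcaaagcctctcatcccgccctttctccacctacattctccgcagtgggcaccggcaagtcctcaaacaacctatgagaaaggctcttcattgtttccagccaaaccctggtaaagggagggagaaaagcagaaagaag
Gabbr1: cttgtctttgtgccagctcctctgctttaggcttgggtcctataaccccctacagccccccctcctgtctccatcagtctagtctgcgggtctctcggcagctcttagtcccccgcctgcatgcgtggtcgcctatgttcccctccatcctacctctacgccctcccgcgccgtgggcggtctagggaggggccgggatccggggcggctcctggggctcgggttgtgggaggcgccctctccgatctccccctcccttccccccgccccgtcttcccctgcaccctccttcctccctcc
The Gabrb2 window shown, the most upstream of 3, had a TATA box and 1 half-site, and the other 2 Gabrb2 windows had neither. Kctd8 had the complete palindrome TGACGTCA, which holds the half-site once on each strand. Gabra5, Gabra4 and Gabbr1 had none of these letters in the windows shown. Over all 31 member windows, 6 held the half-site (19.4%), against 20.8% of 32851 windows of all genes. The complete palindrome stood in 1 member window and in 1.79% of all windows, and TATAAA in 4 member windows and in 13.6% of all. The letters GCGTGGGCG, bound by EGR factors, stood in no member window and in 0.612% of all windows. Both strands were searched. Member windows had a median of 60.0% G and C, against 52.7% in all windows.

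Levels can be compared between genes on the deposited FPKM, which are counts per length and per total. Gabbr1 had the highest mean over the 47 libraries at 132.8 FPKM, followed by the vesicular GABA transporter Slc32a1 at 116.5. The GABA-making enzymes Gad2 and Gad1 had 96.6 and 83.1 FPKM, and the GABA transaminase Abat, which breaks GABA down, had 83.8. Among GABA-A subunits the delta subunit Gabrd and its partner in striatal tonic receptors, the alpha subunit Gabra4, came first at 44.5 and 38.7 FPKM. Gabrb2 had 21.9, Gabrb1 11.4, Gabra2 10.1, Gabra3 7.40, Gabra5 6.49, Gabrg3 6.12 and Gabrg1 3.11 FPKM. The theta subunit Gabrq and the epsilon subunit Gabre were near the floor at 0.195 and 0.0580 FPKM. Gabra6, a subunit of cerebellar granule neurons, had 0 to 11 counts per library and was the 1 member that failed the filter on low counts. The other 27 were tested with 19193 genes in all.

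**Figure D1:**
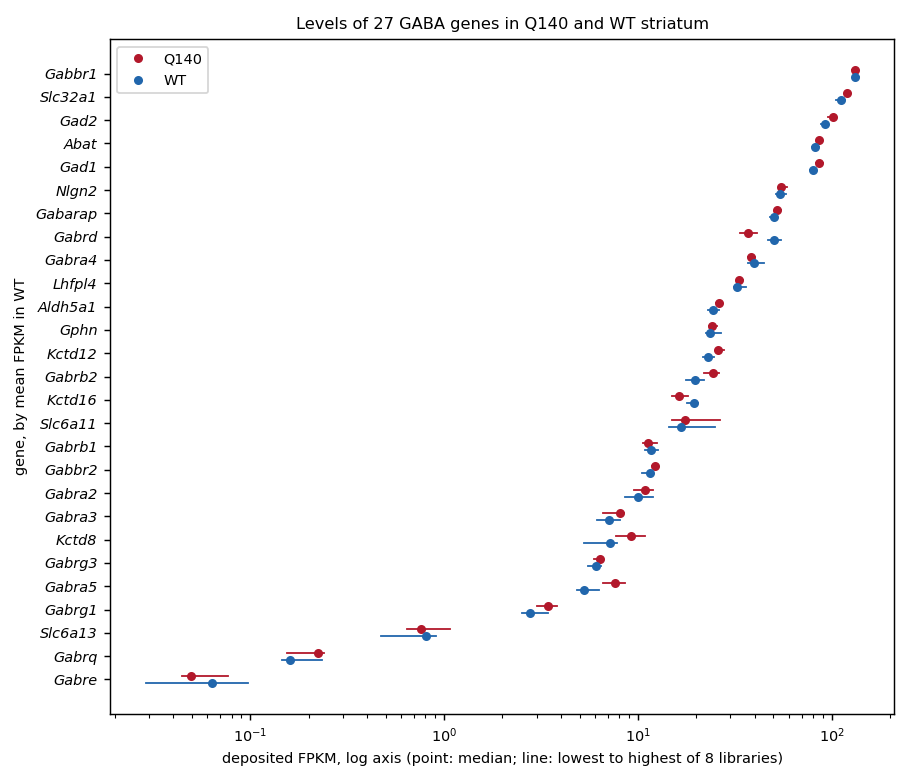
Deposited FPKM of the 27 tested GABA genes on a log axis in Q140 (red, above) and WT (blue, below) striatum. Points are medians and lines run from the lowest to the highest of 8 libraries. The Gabrd lines of the groups do not overlap, and the Gabbr1 lines do.

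Comparing Q140 with WT asks how the expanded Htt allele changes these genes. Of 27 members tested, 11 passed an adjusted p of 0.05 (40.7%): 6 rose and 5 fell, against 34.7% of all genes, 18.2% higher and 16.5% lower. The share of members called was near that of all genes. Their median log2 fold change was 0.028, against -0.00050 for all genes. In mice with Ccdc82+/-, 10 members were called with Q140, 5 in each direction, and the background was 35.0%. In Ccdc82-/- mice 11 were called, 7 higher and 4 lower, and the background was 33.2%. The split depends on scaling. On the deposited FPKM, which are scaled by total counts and put the median of all genes 0.053 higher in Q140 than in WT mice, 12 members were called higher and 2 lower in Q140 than in WT, against 40.7% of all genes called on that scale. There, 12 were higher and 2 lower with Q140 in Ccdc82+/- mice (42.6% of all genes), and 11 higher and 1 lower in Ccdc82-/- mice (40.3%). The median of all genes on that scale was 0.077 higher with Q140 in Ccdc82+/- mice and 0.069 higher in Ccdc82-/- mice.

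These 3 comparisons share no library. Of the 27, 7 were called in all 3 in the same direction (25.9%), against 23.1% of all genes: Gabra5, Gabrb2 and Kctd8 were higher and Gabrd, Gabra4, Gabbr1 and Kctd16 lower. A further 8 were called in 1 or 2 of the comparisons, 12 in none, and 0 in opposite directions.

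**Figure D2:**
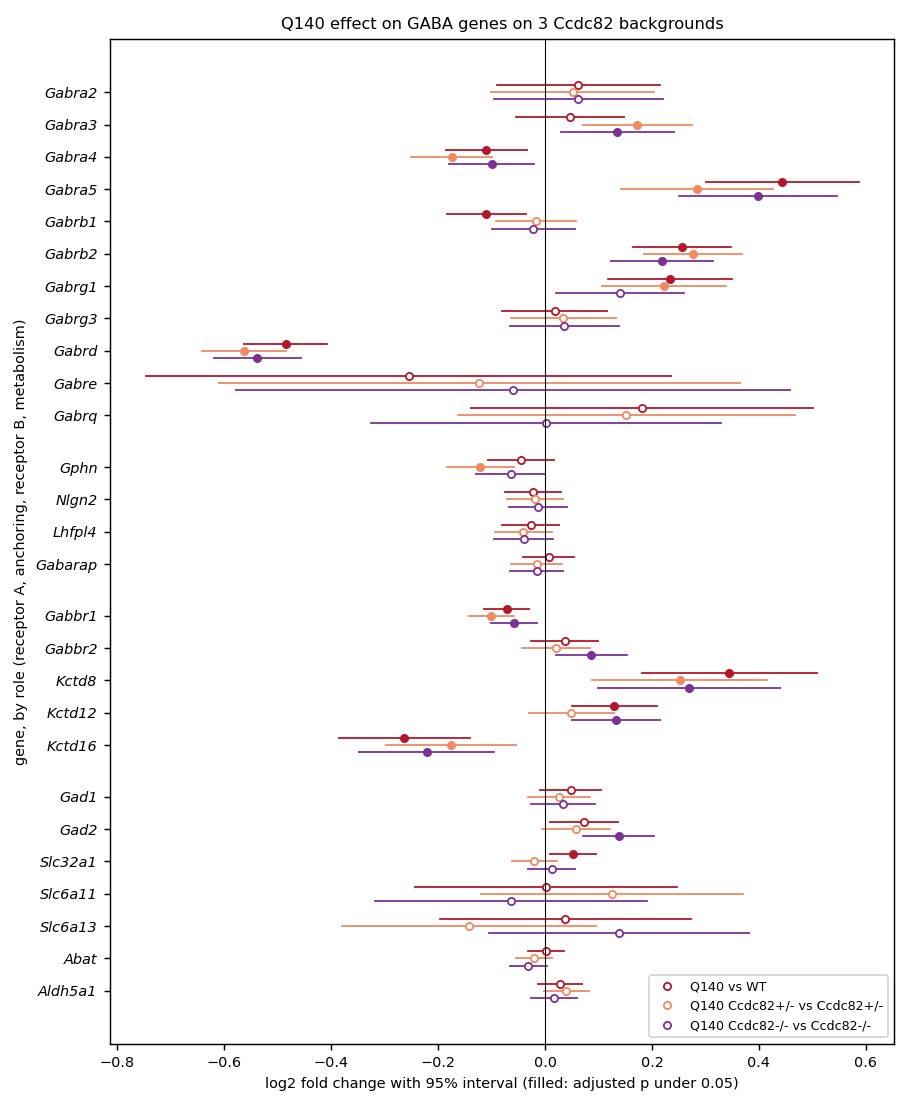
Log2 fold change of Q140 over its control, with 95% interval, for 27 GABA genes on 3 Ccdc82 backgrounds, grouped by role. Filled points passed an adjusted p of 0.05. Gabrd lies between -0.49 and -0.56 on the 3 backgrounds, and Gabra5, Gabrb2 and Kctd8 lie right of 0 on each.

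Among the GABA-A subunits, the delta subunit fell most and on every background. Gabrd (ENSMUSG00000029054, chromosome 4, 155384980 to 155398112) had 93.9, 104 and 117 CPM as the lowest, median and highest of 8 Q140 libraries, against 137, 148 and 159.5 CPM in 8 WT libraries. Every Q140 library lay below every WT library, and the same held on both Ccdc82 backgrounds. The values were 97.7, 104 and 109 CPM in Q140 Ccdc82+/- against 143, 151 and 165 CPM in Ccdc82+/- mice, and 97.4, 104 and 113 CPM in Q140 Ccdc82-/- against 140.5, 152 and 167 CPM in Ccdc82-/- mice. Groups without overlap were found for 9.77% of all genes between Q140 and WT, and for 10.3% and 9.48% on the Ccdc82+/- and Ccdc82-/- backgrounds. The log2 fold change of Gabrd was -0.49 ± 0.039 (adjusted p = 2e-14) against WT (± SE). It was -0.56 ± 0.039 (adjusted p = 1.06e-16) in Ccdc82+/- mice and -0.54 ± 0.04 (adjusted p = 2.46e-15) in Ccdc82-/- mice. In a fit by sex, Gabrd fell by 0.49 in females and 0.48 in males. Of the members, 8 were called in females and 5 in males, against 23.9% and 20.2% of all genes. Of 14 alternative settings, none ended these 3 calls.

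Gabra4 (ENSMUSG00000029211, chromosome 5, 71569749 to 71658308), which pairs with the delta subunit outside synapses, moved less. It had 219, 228 and 240.0 CPM in Q140 against 228, 244 and 284 CPM in WT mice, so the groups overlapped. Its log2 fold change was -0.11 ± 0.038 (adjusted p = 0.0205), and it was -0.17 ± 0.038 (adjusted p = 0.000222) in Ccdc82+/- and -0.10 ± 0.039 (adjusted p = 0.0457) in Ccdc82-/- mice. The call against WT was lost on deposited FPKM at -0.051 and with the plate column as a factor at -0.081, and in Ccdc82-/- mice on FPKM at -0.035, with the plate column at -0.085 and without a filter on low counts at -0.093. Gabrb1 (ENSMUSG00000029212, chromosome 5, 71658113 to 72149037), a beta subunit, starts on the other strand beside Gabra4, and the annotated genes overlap head to head by 196 bases. It fell by 0.11 on the log2 scale in Q140 against WT (adjusted p = 0.0165), and its call too was lost on FPKM at -0.054 and with the plate column at -0.073. In Ccdc82+/- and Ccdc82-/- mice its values were -0.017 ± 0.037 and -0.022 ± 0.038, neither past the threshold. The difference between backgrounds was not called either: the interaction with Ccdc82+/- was 0.093 (95% interval -0.012 to 0.20).

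The alpha subunit Gabra5 (ENSMUSG00000055078, chromosome 7, 57407672 to 57510059), found mostly in receptors outside synapses, rose most. It had 19.3, 22.4 and 24.8 CPM in Q140 against 14.7, 15.9 and 18.8 CPM in WT mice, with no overlap. It had 19.5, 21.5 and 25.2 CPM in Q140 Ccdc82+/- against 14.7, 17.7 and 21.1 CPM in Ccdc82+/- mice, and 17.8, 22.1 and 24.6 CPM in Q140 Ccdc82-/- against 13.1, 17.2 and 18.5 CPM in Ccdc82-/- mice. The groups overlapped on both Ccdc82 backgrounds. The log2 fold changes were 0.44 ± 0.071 (adjusted p = 1.91e-06) against WT, 0.28 ± 0.07 (adjusted p = 0.00116) in Ccdc82+/- mice and 0.40 ± 0.073 (adjusted p = 2.4e-05) in Ccdc82-/- mice.

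Gabrb2 (ENSMUSG00000007653, chromosome 11, 42419757 to 42629028), a beta subunit of synaptic receptors, rose on all 3 backgrounds as well. It had 138, 153 and 166 CPM in Q140 against 118, 128 and 141 CPM in WT mice. It had 145, 153 and 168 CPM in Q140 Ccdc82+/- against 119, 125 and 144 CPM in Ccdc82+/- mice, and 130.5, 148 and 158 CPM in Q140 Ccdc82-/- against 106, 128 and 142 CPM in Ccdc82-/- mice. All Q140 Ccdc82+/- libraries lay above all Ccdc82+/- libraries, and the other 2 pairs overlapped. The log2 fold changes were 0.26 ± 0.045 (adjusted p = 1.17e-05), 0.28 ± 0.045 (adjusted p = 2.78e-06) and 0.22 ± 0.047 (adjusted p = 0.000229) in the same order of backgrounds. None of 14 alternative settings ended a Gabrb2 call.

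**Figure D3:**
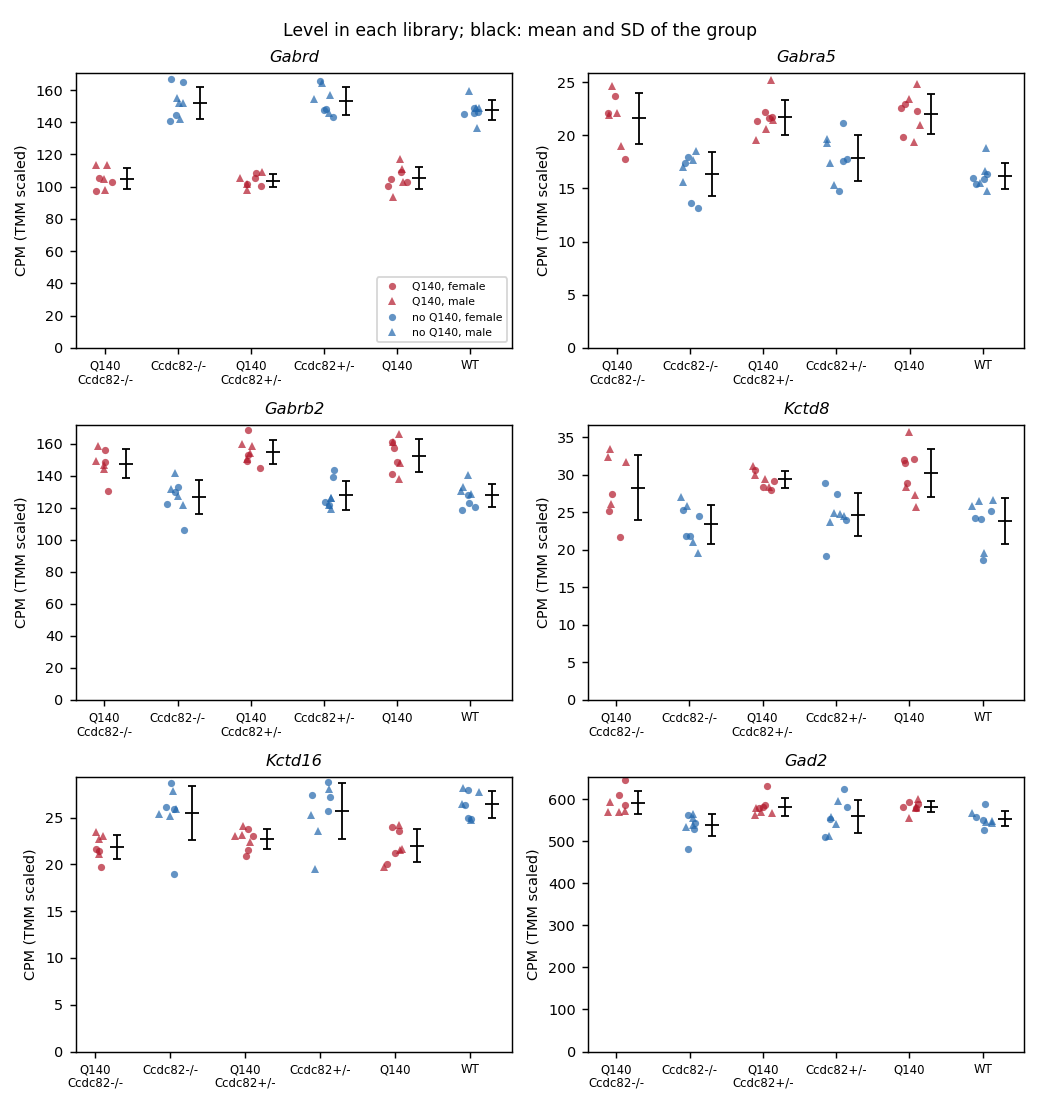
CPM of 6 GABA genes in each of 47 libraries, red with Q140 and blue without, circles for females and triangles for males; black lines give the mean and SD of a group. The Gabrd points of the Q140 groups lie below all points of the groups without Q140, and those of Gad2 and Kctd8 overlap between most pairs of groups.

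The gamma subunit Gabrg1 had 23.1, 26.8 and 29.5 CPM in Q140 against 20.8, 22.4 and 27.3 CPM in WT mice, and the groups overlapped. It rose by 0.23 ± 0.058 (adjusted p = 0.00106) on the log2 scale and by 0.22 ± 0.058 (adjusted p = 0.00174) in Ccdc82+/- mice. In Ccdc82-/- mice its value of 0.14 ± 0.06 did not pass (adjusted p = 0.0645), though it did on FPKM at 0.20 and with voom, the replicate block or only the groups compared at 0.13 to 0.15. Gabra3, an alpha subunit encoded on the X chromosome, had 25.6, 30.9 and 32.2 CPM in Q140 against 25.2, 28.4 and 31.8 CPM in WT mice, a difference of 0.046 ± 0.05 that did not pass. It rose by 0.17 ± 0.051 (adjusted p = 0.00552) in Ccdc82+/- mice and by 0.14 ± 0.052 (adjusted p = 0.0397) in Ccdc82-/- mice, and the last call was lost without the choroid plexus libraries at 0.12, with the plate column at 0.12 and without the sex term at 0.13. Gabra2, a synaptic alpha subunit of medium spiny neurons, stood at 0.062 ± 0.075, 0.052 ± 0.075 and 0.062 ± 0.078 on the 3 backgrounds, and Gabrg3 at 0.018 ± 0.049, 0.034 ± 0.049 and 0.036 ± 0.05. None of these values passed. The X-linked subunits of low level, Gabre and Gabrq, had wide intervals: -0.75 to 0.24 for Gabre and -0.14 to 0.50 for Gabrq in Q140 against WT.

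No member gene of the proteins that anchor or traffic GABA-A receptors was called by edgeR in Q140 against WT. On FPKM Gabarap was called at 0.062, where the median of all genes was 0.053. Gephyrin, encoded by Gphn and forming the scaffold under inhibitory synapses, had 76.8, 80.4 and 85.2 CPM in Q140 against 77.5, 82.5 and 92.1 CPM in WT mice, a log2 fold change of -0.045 ± 0.031. It fell by 0.12 in Q140 Ccdc82+/- against Ccdc82+/- mice (adjusted p = 0.00147), a call lost on FPKM at -0.050. In Ccdc82-/- mice Gphn stood at -0.065 ± 0.032, not called. Of 14 alternative settings, 1 called it lower there and 3 turned its sign. Nlgn2, the adhesion molecule neuroligin at inhibitory synapses, had -0.023 ± 0.026 with a 95% interval of -0.075 to 0.029. Lhfpl4, which helps to cluster receptors there, had an interval of -0.08 to 0.026, and the trafficking protein gene Gabarap -0.041 to 0.054. On the Ccdc82 backgrounds these 3 genes lay between -0.041 and -0.013, none past the threshold.

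The GABA-B receptor genes and their partners moved in both directions. Gabbr1 (ENSMUSG00000024462, chromosome 17, 37045966 to 37075067) had 974, 1006 and 1053 CPM in Q140 against 1016, 1044 and 1125 CPM in WT mice. It fell by 0.071 on the log2 scale (adjusted p = 0.00573), by 0.10 in Ccdc82+/- mice (0.000112) and by 0.058 in Ccdc82-/- mice (0.0329), a small change of an abundant gene. On deposited FPKM the first 2 values were -0.015 and -0.030, not called, and the third turned sign to 0.0075. With the plate column as a factor the changes against WT and in Ccdc82-/- mice were -0.051 and -0.035, not called, and without a filter on low counts the change in Ccdc82-/- mice was -0.052, not called. Gabbr2 had 76.9, 80.2 and 82.7 CPM in Q140 against 72.2, 79.3 and 81.9 CPM in WT mice and was not called there (0.036 ± 0.032) or in Ccdc82+/- mice (0.02 ± 0.032). On FPKM both were called, at 0.093 and 0.090, where the medians of all genes were 0.053 and 0.077. In Q140 Ccdc82-/- against Ccdc82-/- mice Gabbr2 rose by 0.087 ± 0.033 (adjusted p = 0.0348) in the edgeR fit. That call was lost without the choroid plexus libraries at 0.075 and with only the groups compared at 0.084.

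The 3 KCTD auxiliary subunits did not move together. Kctd8 (ENSMUSG00000037653, chromosome 5, 69109285 to 69341679) had 25.7, 30.3 and 35.8 CPM in Q140 against 18.7, 24.7 and 26.6 CPM in WT mice. It had 28, 29.3 and 31.2 CPM in Q140 Ccdc82+/- against 19.2, 24.6 and 28.9 CPM in Ccdc82+/- mice, and 21.8, 27.4 and 33.4 CPM in Q140 Ccdc82-/- against 19.6, 23.2 and 27 CPM in Ccdc82-/- mice. All 3 pairs of groups overlapped. Kctd8 rose by 0.34 ± 0.082 (adjusted p = 0.000744), 0.25 ± 0.081 (adjusted p = 0.0128) and 0.27 ± 0.085 (adjusted p = 0.0113) in that order, and the calls on both Ccdc82 backgrounds were lost with the plate column as a factor at 0.19 and 0.20.

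Kctd16 (ENSMUSG00000051401, chromosome 18, 40256962 to 40531630) went the other way. It had 19.7, 21.6 and 24.2 CPM in Q140 against 24.7, 26.4 and 28.1 CPM in WT mice, with no overlap. It had 20.9, 23 and 24.1 CPM in Q140 Ccdc82+/- against 19.5, 26.4 and 28.9 CPM in Ccdc82+/- mice, and 19.8, 21.6 and 23.5 CPM in Q140 Ccdc82-/- against 19, 25.9 and 28.7 CPM in Ccdc82-/- mice, and the groups overlapped on both backgrounds. The log2 fold changes were -0.26 ± 0.061 (adjusted p = 0.000512), -0.18 ± 0.061 (adjusted p = 0.0196) and -0.22 ± 0.063 (adjusted p = 0.00483). On FPKM the values in Ccdc82+/- and Ccdc82-/- mice were -0.097 and -0.15, not called. The Q140 and WT groups overlapped on FPKM, with 14.98 to 18.23 in Q140 and 17.87 to 20.53 in WT mice. Kctd12 had 149.5, 154 and 167 CPM in Q140 against 132, 142 and 154 CPM in WT mice and rose by 0.13 ± 0.04 (adjusted p = 0.00826). It rose by 0.13 ± 0.041 (adjusted p = 0.00949) in Ccdc82-/- mice and had 0.049 ± 0.04 in Ccdc82+/- mice, not called except on FPKM at 0.12. The call in Ccdc82-/- mice was lost with only the groups compared, at 0.13. Genes annotated on the other strand in GENCODE M21 share 62.8% of the exonic bases of Kctd12, 24.9% of those of Slc32a1, 17.7% of Aldh5a1, 10.4% of Kctd16, 4.98% of Gabra5, 3.92% of Gphn and 3.14% of Kctd8, and under 1% of Gabra4 and Gabrb1. The lengths behind the deposited FPKM were 1349 bases for Kctd16 and 3397 for Gphn, against 3477 and 3749 exonic bases in M21. For Kctd16 and Gphn the shares may therefore not describe the bases that were counted. The libraries were stranded, but the sources used here do not give the strand setting of the counting, so reads of the partners cannot be told apart.

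Of the genes of GABA synthesis, transport and breakdown, edgeR called Slc32a1 in Q140 against WT and Gad2 in Ccdc82-/- mice. On the deposited FPKM, limma called Gad1, Gad2, Slc32a1, Abat and Aldh5a1 higher in Q140 than in WT mice, at 0.10, 0.13, 0.11, 0.0585 and 0.084 on the log2 scale, where the median of all genes was 0.053. Gad1, the cytosolic glutamate decarboxylase, had 619, 650.4 and 670.5 CPM in Q140 against 603, 618 and 655 CPM in WT mice, with an interval of -0.0093 to 0.11 for the log2 fold change. Gad2, the decarboxylase at nerve endings, had 556, 581 and 600.0 CPM in Q140 against 528, 549.6 and 588 CPM in WT mice, a difference of 0.072 ± 0.032 that did not pass (adjusted p = 0.0689), though it did with voom at 0.082, with the plate column at 0.095 and with only the groups compared at 0.073. In Q140 Ccdc82-/- mice Gad2 had 569, 586 and 645 CPM against 482, 541 and 564 CPM in Ccdc82-/- mice. These groups did not overlap, and Gad2 rose by 0.14 ± 0.033 (adjusted p = 0.000729). In Ccdc82+/- mice it had 0.057 ± 0.032, and neither interaction was called (-0.015 with Ccdc82+/- and 0.065 with Ccdc82-/-).

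Slc32a1, which loads GABA into vesicles, had 322, 329 and 342 CPM in Q140 against 307, 318 and 333 CPM in WT mice. Its rise of 0.052 ± 0.021 passed narrowly (adjusted p = 0.0485) and was lost under 9 of 14 alternative settings, among them DESeq2 at 0.048 and leaving out the choroid plexus libraries at 0.044. On the Ccdc82+/- and Ccdc82-/- backgrounds it had -0.02 ± 0.021 and 0.012 ± 0.022. Genes on the other strand share 24.9% of its exonic bases. The astrocytic GABA transporter gene Slc6a11 had a wide spread within groups, with 75.1, 87.6 and 131 CPM in Q140 against 75.2, 87 and 127 CPM in WT mice. Its interval of -0.24 to 0.25 leaves room for changes of the size seen in Gabrg1. Slc6a13, a GABA transporter of the meninges, had 1.85, 2.17 and 3.08 CPM in Q140 against 1.38, 2.39 and 2.68 CPM in WT mice and an interval of -0.20 to 0.27. Abat and Aldh5a1, which break GABA down in sequence, had intervals of -0.031 to 0.036 and -0.014 to 0.07 in the edgeR fit, and the higher values called on FPKM, given above, lie outside both.

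Some markers of most cell types listed were called in Q140 against WT, where 34.7% of all genes were called, 18.2% higher and 16.5% lower. Of 17 medium spiny neuron markers, 16 fell and 1 rose in Q140 against WT, with a median log2 fold change of -0.57. Of 16 astrocyte markers, 7 fell and 1 rose, and their sum was 4250 to 4650 CPM in Q140 against 4780 to 5220 CPM in WT mice. Of 12 oligodendrocyte markers 4 fell, with sums of 5870 to 7850 CPM in Q140 and 6040 to 7560 CPM in WT mice. Of 14 interneuron markers, 1 rose and 2 fell, with sums of 548 to 593 CPM in Q140 and 581 to 620 CPM in WT mice. Of 12 cortical excitatory markers, 3 rose and 3 fell, and their sum was 149 to 174 CPM in Q140 and 129 to 143 CPM in WT mice. Of 6 thalamic or pallidal markers 1 rose, with sums of 95.3 to 106 CPM in Q140 and 88.3 to 101 CPM in WT mice. None of 12 fibroblast markers of the meninges was called, with sums of 44.8 to 53.3 CPM in Q140 and 46.2 to 59.5 CPM in WT mice. Of 9 choroid plexus markers tested 1 rose, with sums of 28.2 to 36.1 CPM in Q140 and 25.4 to 73.7 CPM in WT mice. Of 3 cerebellar granule markers tested 1 fell, with sums of 44.3 to 56.8 CPM in Q140 and 40.5 to 59.1 CPM in WT mice. No listed marker was at 0 in all libraries. The part of these shifts in the changes of GABA genes was not tested.

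Plate wells in the labels put 4 of the 8 WT libraries and 0 of the 8 Q140 libraries in plate column 4. The other comparisons were uneven too. Column 4 held 3 of 8 Q140 Ccdc82+/- and 1 of 8 Ccdc82+/- libraries, and column 6 held 0 and 3. Column 5 held 4 of 7 Q140 Ccdc82-/- and 1 of 8 Ccdc82-/- libraries. With the column as a factor, 8 members were called in Q140 against WT (6 higher and 2 lower, Gabrd and Kctd16), 9 in Ccdc82+/- and 7 in Ccdc82-/- mice, against 30.0%, 30.3% and 29.5% of all genes. With the libraries of 1 sex alone, fewer members and fewer of all genes passed. Against WT, Gabrb1, Slc32a1, Kctd12 and Kctd16 lost their call in females alone, and Gabra4, Gabrg1, Gabbr1, Slc32a1, Kctd8 and Kctd12 in males alone. In Ccdc82+/- mice Gabra3, Gabra4, Gabra5, Gabrg1, Gabbr1, Gphn and Kctd8 lost it in females alone, with Gabra5 at 0.29, and Kctd8 and Kctd16 in males alone, with Kctd16 at -0.057. In Ccdc82-/- mice Gabra3, Gabra4, Gabbr1, Gabbr2, Kctd8, Kctd12 and Kctd16 lost it in females alone, with Kctd8 at 0.084, and Gabra3, Gabbr1, Gabbr2, Gad2 and Kctd12 in males alone, with Gad2 at 0.071.

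The Ccdc82 comparisons ask whether loss of Ccdc82 changes these genes by itself or on top of Q140. With Q140, edgeR called 0 of 27 members in Q140 Ccdc82-/- against Q140 mice and 0 in Q140 Ccdc82+/- against Q140 mice. Without Q140 it called 0 in Ccdc82-/- against WT and 0 in Ccdc82+/- against WT mice. At an unadjusted p under 0.05 the counts were 0, 0, 1 and 1 in that order, and DESeq2, voom and limma on FPKM also called 0. In each comparison 0.00521% of genes were called, which is Ccdc82 itself. The gene at an unadjusted p under 0.05 in Ccdc82-/- against WT mice was Gabrb1 at -0.10 ± 0.037 (adjusted p = 1), and in Ccdc82+/- against WT mice Slc32a1 at 0.048 ± 0.021 (adjusted p = 0.998). Groups without overlap were found for 0 members in the 4 comparisons, against 0.0469% and 0.0313% of all genes with Q140 and 0.0156% and 0.0104% without it.

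The interactions, which test whether the Q140 change differs between Ccdc82 genotypes, called 0 members with Ccdc82-/- and 0 with Ccdc82+/-, against 0% of all genes in each. At an unadjusted p under 0.05 there were 0 and 1, the 1 with Ccdc82+/- being Slc32a1 at -0.072 ± 0.03 (adjusted p = 0.914). For Gabrd the intervals of the interaction were -0.17 to 0.059 with Ccdc82-/- and -0.19 to 0.032 with Ccdc82+/-. Those of Gabra5 were -0.25 to 0.16 and -0.36 to 0.041, and those of Gabrb2 -0.17 to 0.094 and -0.11 to 0.15. The median half-width of a member's interval was 0.078 to 0.081 in the Ccdc82 comparisons and 0.11 in the interactions.

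**Figure D4:**
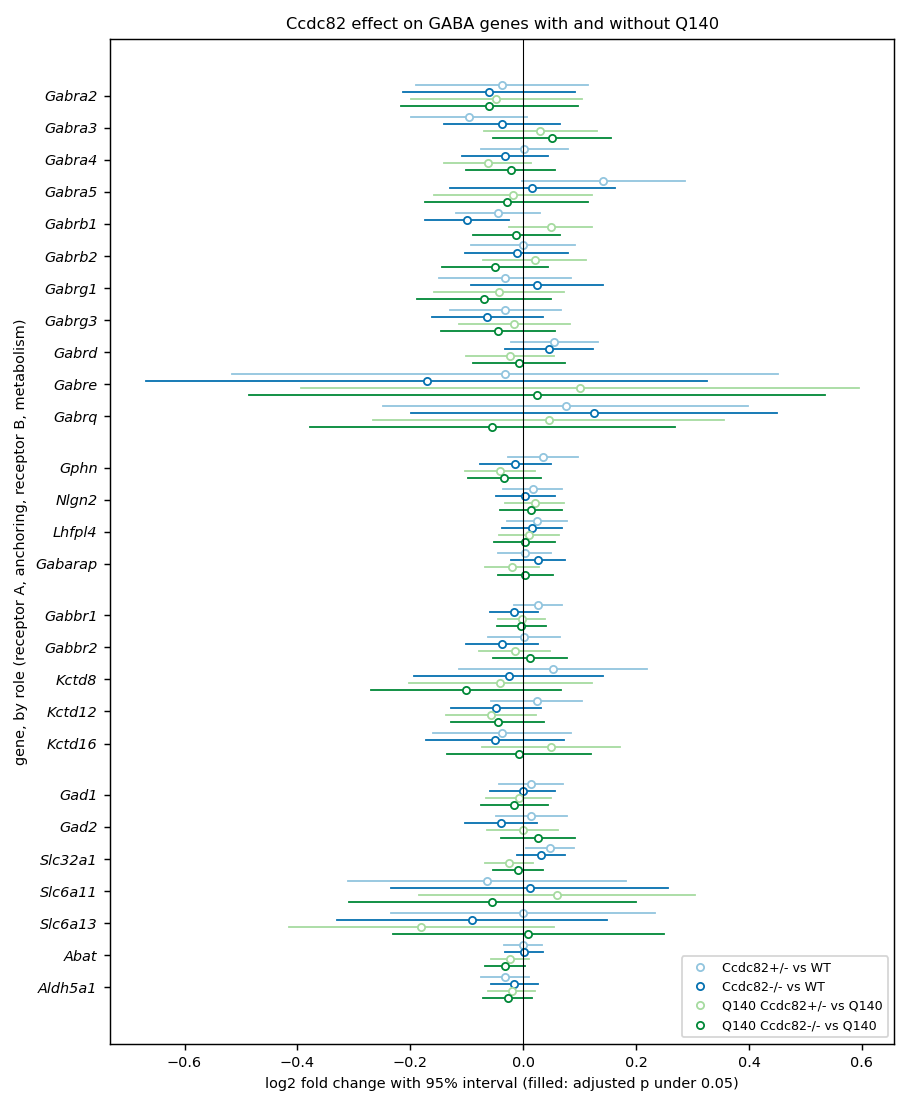
Log2 fold change of Ccdc82+/- and Ccdc82-/- over their controls, with 95% interval, for 27 GABA genes without Q140 (blue) and with it (green). Every point is open, that is, no member passed an adjusted p of 0.05.

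Sex made a small difference to some receptor genes. Males had lower levels than females of 3 members and 0 were higher, while 8.67% of all genes were called, 4.64% lower and 4.03% higher. Gabra2 had 62.9, 71.0 and 88.8 CPM as the lowest, median and highest in 24 males, against 64.4, 80.1 and 101 CPM in 23 females, and its log2 fold change was -0.16 ± 0.044 (adjusted p = 0.0192). Kctd12 differed by -0.092 ± 0.023 (adjusted p = 0.01) and Gabra3 by -0.096 ± 0.029 (adjusted p = 0.0326), and the Gabra3 call was lost with the plate column at -0.092, without a filter on low counts at -0.094 and on FPKM at -0.084. The sexes overlapped for all 3. The Q140 change was not called as different between males and females for any member, against 0% of all genes, though 3 had an unadjusted p under 0.05. For Gabbr1 it was -0.019 in males and -0.12 in females (adjusted p = 0.557 for the difference). For Gabra3 it was -0.069 and 0.17 (adjusted p = 0.57), and for Gabrg1 0.11 and 0.36 (adjusted p = 0.596).

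In place, 5 members lie in 1 stretch of chromosome 5 in the GENCODE M21 annotation of GRCm38: Kctd8, Gabrg1 (70751047 to 70842617), Gabra2 (70957597 to 71095849), Gabra4 and Gabrb1. They lie 34.2 to 36.7 Mb from Htt on the same chromosome. In Q140 against WT mice 2 of them rose, Kctd8 and Gabrg1, 2 fell, Gabra4 and Gabrb1, and Gabra2 was not called.

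A wider list of 35 genes of GABA signalling outside the 28 held chloride transporters, receptor-associated proteins, glutamine and glutamate handling genes and GABA-B effector channels. Of these, 34 were in the table and 30 were tested: 10 rose, 8 fell and 12 were not called in Q140 against WT, with a median of 0.023, against 34.7% of all genes called. In Ccdc82+/- mice 7 rose and 8 fell with Q140 (35.0% of all genes called), and in Ccdc82-/- mice 7 rose and 7 fell (33.2%). Named are the 6 with the smallest p against WT. Fam196b, a gene related to an inhibitory synapse protein, rose by 1.21 ± 0.13 (adjusted p = 3.98e-10). Kcnj3, a potassium channel opened by GABA-B receptors, rose by 0.36 ± 0.048 (adjusted p = 2.85e-08). Slitrk3, an adhesion molecule of inhibitory synapses, rose by 0.22 ± 0.03 (adjusted p = 7.81e-08). Pianp, which binds Gabbr1, fell by 0.22 (adjusted p = 2.88e-10). Clptm1, which holds GABA-A receptors inside the cell, fell by 0.20 (5.43e-09), and Glul, the astrocytic glutamine synthetase, by 0.16 (0.000902). All 6 were called in the same direction with Q140 in Ccdc82+/- and in Ccdc82-/- mice.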

How the data were processed

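Raw read counts per gene for 47 striatal libraries, and FPKM made from them, are 2 tables deposited by the authors. The deposited FPKM were the counts per total count and per gene length, to within a relative 7.2e-15. Alignment with STAR 2.7.5c and counting with HTSeq 0.12.3 on GRCm38, with SAMtools 1.10, are named in the submitters' processing notes, and stranded TruSeq libraries in the labels' protocols. The annotation release and the strand setting of the counting are not given in the sources used here. Positions come from GENCODE M21, and promoters from RefSeq.

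Groups, sexes, replicate numbers and wells come from the labels. The fit used edgeR 4.0.16 under R 4.3.3: filterByExpr on the 6 groups (19193 genes kept of 33998 with any count), TMM scaling, and a robust quasi-likelihood fit of group and sex over all 47 libraries. P-values were adjusted by Benjamini-Hochberg over all genes tested, with a threshold of 0.05. A model with 12 coefficients, 1 per group and sex, tested the Q140 change by sex on 19714 genes. Standard errors are the absolute log2 fold change over the square root of F, and intervals are 95%. P-values measure the spread between libraries of single mice. Alternatives used DESeq2 1.42.0, limma 3.58.1 on voom values, and limma on log2(FPKM + 0.1) with genes of mean FPKM under 0.1 left out, where fold changes of low genes are understated. No 2 libraries agreed within sampling noise, with at least 3.95 chi-square per gene over 161 pairs within groups.

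Members, lists, named genes and most tests were chosen with earlier results of these data known. Named were all 28 members, Ccdc82, Htt and, from the wider list, at most 6 genes of lowest p against WT, plus any called in an interaction, of which there were 0.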

Additional observations from a re-analysis of the deposited data

Results flagged for a closer look

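A sample far from the others of its group was found in 8 of 166 sets of 1 gene in 1 group (Dixon's test at the 95% level), where chance gives about 1 in 20. These are values with no explanation. Gabrg1 had 27.3 CPM in the fourth male of the WT group, the highest there. Gad2 had 631 CPM in the second female of the Q140 Ccdc82+/- group, the highest there, and 482 CPM in the first female of the Ccdc82-/- group, the lowest. Gphn had 92.7 CPM in the third male and Slc6a11 121 CPM in the fourth female of the Ccdc82+/- group, each the highest. Kctd16 had 19.0 CPM in the second female of the Ccdc82-/- group and Kctd12 118 CPM in the first male, each the lowest, and that male is the library with 353 CPM of choroid plexus markers. Gabre had 0.110 CPM in the fourth female of the Q140 Ccdc82+/- group, the lowest.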

How the results depend on the processing

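Of 1155 values recomputed under 14 alternatives, 935 kept their direction and their side of the threshold, 82 lost their call, 52 gained one and 86 changed sign. Of 35 calls of members, 10 were called the same way under every alternative run: Gabrd and Gabrb2 on all 3 backgrounds, Gabra5 against WT and in Ccdc82-/- mice, and Gabra2 and Kctd12 between the sexes. The counts of called members in Q140 against WT, in Ccdc82+/- and in Ccdc82-/- mice, 11, 10 and 11, changed to 7, 3 and 4 in females only, and to 5, 8 and 6 in males only, where each group held 3 or 4 libraries. The shares of all genes called were then 22.4%, 17.3% and 17.9% in females and 20.4%, 24.3% and 19.6% in males. With the plate column as a factor the count in Ccdc82-/- mice was 7, with 29.5% of all genes called. The replicate number as a block, within sex, gave 11, 10 and 13 members, against 34.6%, 35.1% and 32.7% of all genes. Numbers did not pair the mice: same-numbered libraries of other groups had a median correlation of -0.018 (-0.44 to 0.52, 24 of 115 pairs over 0.1). The 3 members of lowest level tested, Gabre, Gabrq and Slc6a13, had 4 to 26, 27 to 95 and 57 to 158 counts per library, and what part of their spread is counting error was not tested.

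The values below are log2 fold changes that turned sign. The fall of Gabbr1 in Ccdc82-/- mice had been called by edgeR, and the values of the other genes in the comparisons given had not. The sizes reach 0.37, in Gabre, whose value was not called in that fit either. On the deposited FPKM, Abat was then called higher in Q140 Ccdc82+/- against Ccdc82+/- mice under all 3 FPKM settings, and Slc32a1 with either pseudocount. The median of all genes in that comparison was 0.077 at pseudocount 0.1, 0.048 at pseudocount 1 and 0.027 without a filter. In Ccdc82-/- mice it was 0.069, 0.044 and 0.023 in the same order, and in Q140 against WT mice 0.053, 0.034 and 0.009. The causes of the changes of sign were not tested. Gphn stood at 0.012 or 0.013, Nlgn2 0.033 and Lhfpl4 0.029 in Q140 against WT mice under the 3 FPKM settings. Gabrb1 stood at 0.049 or 0.053, Slc32a1 0.051, Abat 0.050, Nlgn2 0.051 or 0.052, Lhfpl4 0.029 or 0.030 and Gabarap 0.054 or 0.055 in Q140 Ccdc82+/- against Ccdc82+/- mice under the 3 FPKM settings. Gabrb1 stood at 0.040 or 0.044, Gabbr1 0.0074 or 0.0075, Slc6a11 0.017 or 0.018, Abat 0.034 or 0.035, Gphn 0.0025 or 0.0026, Nlgn2 0.053 or 0.054, Lhfpl4 0.025 or 0.026 and Gabarap 0.051 or 0.052 in Q140 Ccdc82-/- against Ccdc82-/- mice under the 3 FPKM settings. Slc6a11 stood at -0.0024 and Abat -0.0023 in Q140 against WT mice with RLE size factors. Gabrq stood at -0.0019 in Q140 Ccdc82-/- against Ccdc82-/- mice with RLE size factors. Slc6a11 stood at -0.0030 and Abat -0.0023 in Q140 against WT mice with DESeq2. Gabrq stood at -0.0018 in Q140 Ccdc82-/- against Ccdc82-/- mice with DESeq2. Slc6a11 stood at -0.023 in Q140 against WT mice with voom. Gabrq stood at -0.0082 in Q140 Ccdc82-/- against Ccdc82-/- mice without the sex term. Slc6a11 stood at -0.13, Slc6a13 -0.028 and Abat -0.0044 in Q140 against WT mice with the plate column as a factor. Gabrq stood at -0.026 and Nlgn2 0.011 in Q140 Ccdc82-/- against Ccdc82-/- mice with the plate column as a factor. Gabrq stood at -0.011 in Q140 Ccdc82-/- against Ccdc82-/- mice with a fit of only the groups compared. Gabra2 stood at -0.043 and Lhfpl4 0.00020 in Q140 against WT mice in females only. Gabrq stood at -0.10 and Gabbr2 -0.029 in Q140 Ccdc82+/- against Ccdc82+/- mice in females only. Gabre stood at 0.22, Gabrq -0.11, Slc32a1 -0.0083, Slc6a11 0.033 and Nlgn2 0.0099 in Q140 Ccdc82-/- against Ccdc82-/- mice in females only. Gabra3 stood at -0.069, Slc6a11 -0.090, Slc6a13 -0.079, Abat -0.019, Aldh5a1 -0.0082 and Gabarap -0.0035 in Q140 against WT mice in males only. Gabra2 stood at -0.078, Gabre 0.37 and Gad1 -0.020 in Q140 Ccdc82+/- against Ccdc82+/- mice in males only. Gabra2 stood at -0.032 and Slc6a13 -0.031 in Q140 Ccdc82-/- against Ccdc82-/- mice in males only. Gabrq stood at -0.0012 in Q140 Ccdc82-/- against Ccdc82-/- mice without the choroid plexus libraries.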
